A study of Homo sapiens with 9 samples.

Results

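The genes described here are POU2F3 and 8 others of the tuft cell programme (AVIL, TRPM5, BMX, SH2D6, GFI1B, ASCL2, PLCG2 and PTGS1). They were chosen by symbol, with earlier results of these data known, and all 9 were found among the 35762 gene symbols of the estimated count table. RNA was measured by poly-A sequencing in TYUC-1, a cancer cell line grown in suspension that the labels call neuroendocrine esophageal carcinoma. The cells were taken on day 0, day 3 or day 6 of EPZ-6438, an inhibitor of the histone methyltransferase EZH2, with 3 biological replicates a day and 9 libraries in all. Every library carries EPZ-6438 as its treatment, the protocol gives 2 uM EPZ-6438 or DMSO, and whether the day 0 cells received DMSO is not stated. No vehicle library of day 3 or day 6 was analysed here, so the inhibitor and the days in culture cannot be told apart, and all values come from 1 cell line.

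Tuft cells are rare chemosensory cells of the gut, airway and other epithelia, with a brush of stiff microvilli. They sense luminal compounds through taste receptors, G proteins, a phospholipase C and the channel TRPM5, and answer with acetylcholine, eicosanoids and the cytokine IL-25. POU2F3, a POU domain (OCT) transcription factor that binds octamer DNA, is required for their formation, works with small coactivators of the OCA family, and marks a variant of small cell carcinoma with tuft cell features and low neuroendocrine markers.

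The libraries held 21638874 to 31235055 estimated counts, and levels are given in CPM, counts scaled to a common library total after TMM normalisation, which adjusts each library for its composition. A gene is called changed where edgeR's quasi-likelihood test, fitted to all 9 libraries and 15345 tested genes, gave a Benjamini-Hochberg adjusted p under 0.05, and all 9 of the genes passed the filter on low counts. Replicate 2 of day 0 stood apart, with a mean correlation of 0.985 with its own day against 0.988 to 0.992 for the other libraries. Its chi-square per gene was 62.8 and 52.8 against its replicates, compared with 3.78 to 19.4 for other pairs within a day. Mitochondrially encoded transcripts took 9.78% to 13.3% of counts.

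The tuft cell label was checked against other markers. On a per-length scale (TPM, which divides by the median transcript length and can be compared between genes), POU2F3 stood at 204 ± 24.9 TPM (SD, n = 3) on day 0, above 95.3% of the 14929 tested genes with a length. Its coactivators POU2AF3 (listed as COLCA2) and POU2AF2 (listed as C11orf53) stood at 160 ± 9.1 and 102 ± 1.26 TPM, and the receptor tyrosine kinase KIT, chosen after its values were seen, at 75.7 ± 5.61 TPM. NEUROD1, a neuroendocrine factor, was at 1.87 ± 0.456 TPM on day 0. YAP1 had 0 counts in the 3 day 0 libraries, where 3 counts would be 0.098 to 0.141 CPM, and reached 2.13 ± 0.518 TPM on day 6. Of 21 neuroendocrine markers 13 were tested and 4, CHGA among them, had 0 counts in all libraries. Some defining tuft cell products were also missing: IL25 and the taste receptor gene TAS1R2 had 0 counts in all 9 libraries, and CHAT, which makes acetylcholine, had 6 counts pooled over the 3 day 0 libraries.

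Several of the 9 genes are also used by blood cells, so 42 markers of B, T, NK, myeloid, mast, megakaryocyte and erythroid cells were read in the same libraries. Only 13 of the 42 passed the filter, 10 were at 0 in all 9 libraries (MS4A1, CD3D, CD2 and CPA3 among them), and PTPRC, the pan-leukocyte CD45 gene, ranged from 0.268 to 0.638 CPM. The summed level of the 42 went from 522 to 672 CPM on day 0 to 391 to 404 CPM on day 3 and 379 to 383 CPM on day 6, nearly all of it LYZ, the lysozyme gene. Without LYZ the sums were 34.7 to 37.4, 46.8 to 50.5 and 54.7 to 62.3 CPM. The part of LYZ-expressing cells in the changes below was not tested. In such bulk samples, fewer cells that express a gene and less of its RNA per cell cannot be told apart.

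POU2F3 and 3 of the other 8 genes were lower on day 6 than on day 0, and of these 4 only BMX was already called lower on day 3. Between day 0 and day 3, 2 of the 9 genes were called higher (SH2D6 and PTGS1) and 1 lower (BMX), where 22.5% and 18.1% of all tested genes were called in those directions. Between day 0 and day 6, SH2D6 and PTGS1 were higher and 4 genes, POU2F3, AVIL, TRPM5 and BMX, were lower, against 28.9% and 25.7% of all tested genes. Between day 3 and day 6, none was higher and 5 were lower (those 4 and SH2D6), against 11.5% and 4.76%. Because the 9 genes were chosen with earlier results of these data known, they were not tested as a set. At an unadjusted p under 0.05 in edgeR, 1 of the 9 (PTGS1) was higher between day 3 and day 6; limma-voom called 1 and DESeq2 0. The median log2 fold change of the 9 was 0.13, -0.26 and -0.31 in the 3 comparisons, and that of all tested genes 0.015, 0.013 and -0.001.

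**Figure D1:**
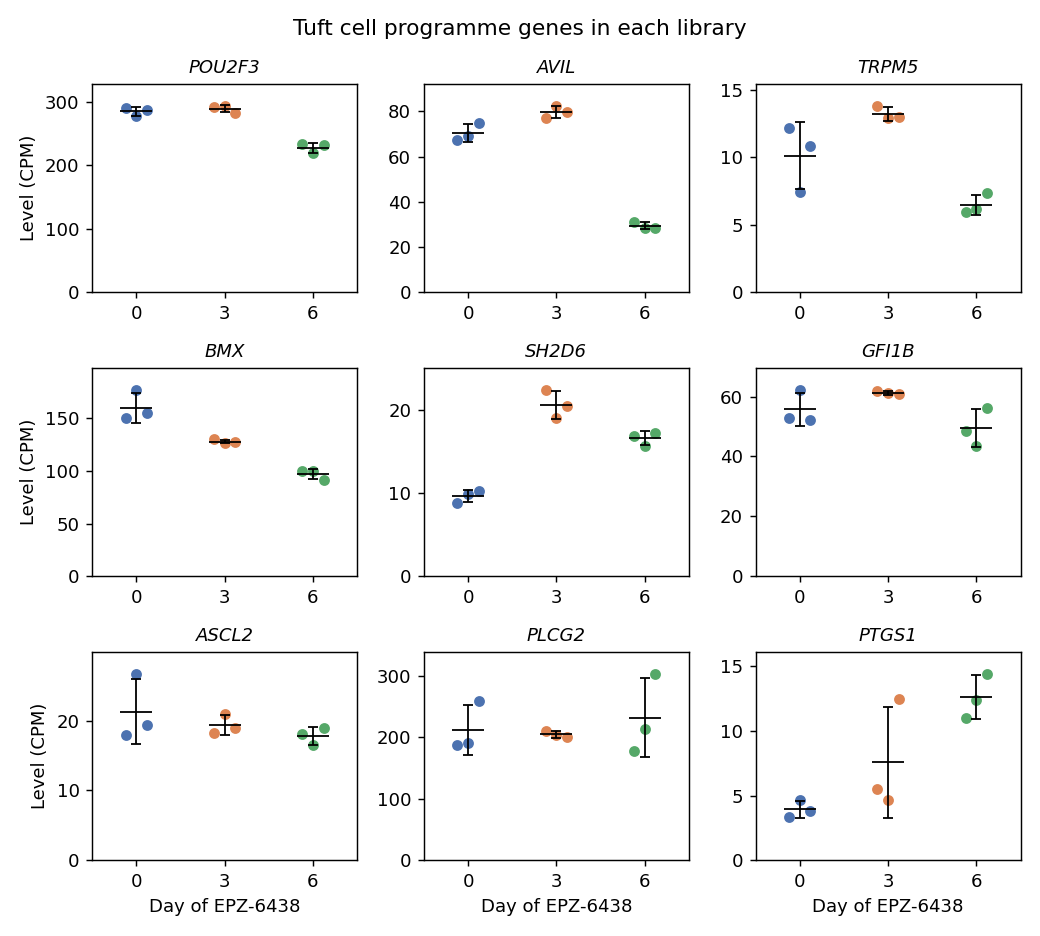
Level in CPM (vertical axes from 0, each panel with its own scale) of the 9 genes in each of 9 libraries by day of EPZ-6438 (horizontal axes); points are libraries, bars the mean and SD of 3. AVIL sits near 70 and 80 CPM on days 0 and 3 and near 29 CPM on day 6, while replicate 3 of day 3 lies among the day 6 libraries for PTGS1.

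POU2F3 (chr11:120236640-120319944, plus strand, GRCh38, GENCODE 29) was steady to day 3 and lower on day 6. It measured 290, 277 and 287 CPM in the day 0 libraries, 291, 293 and 282 CPM on day 3, and 233, 219 and 231 CPM on day 6. The 3 day 6 libraries lay below all 6 others, while days 0 and 3 overlapped. Its log2 fold change was 0.02 (SE 0.07, edgeR adjusted p = 0.835) on day 3 against day 0. It was -0.32 (SE 0.07, edgeR adjusted p = 0.00141) on day 6 against day 0 and -0.34 (SE 0.07, edgeR adjusted p = 0.00353) on day 6 against day 3. Even on day 6 it had the highest level per length of the 9 genes, 171 ± 1.94 TPM.

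AVIL (chr12:57797376-57818704, minus strand) encodes advillin, an actin-bundling protein of the villin family used as a tuft cell marker, and it fell most of the 9. It measured 67.5, 69.3 and 75 CPM on day 0, 77.1, 82.4 and 79.9 CPM on day 3, and 31.2, 28.5 and 28.4 CPM on day 6. The 3 days did not overlap: day 3 was highest and day 6 lowest. Day 3 against day 0 did not pass the test, with a log2 fold change of 0.18 (SE 0.07, edgeR adjusted p = 0.072), but passed it when libraries were scaled by their totals alone (0.26, adjusted p = 0.0217). Day 6 stood at -1.26 (SE 0.08, edgeR adjusted p = 8.75e-08) against day 0 and at -1.44 (SE 0.08, edgeR adjusted p = 3.10e-07) against day 3. The promoter of AVIL is shown with that of BMX, another gene that fell, because BMX holds the octamer that OCT factors bind and AVIL its first 7 letters. AVIL shares 303 exonic bases, 5.15% of its exonic length, with TSFM on the opposite strand. TSFM had already fallen by 0.56 on the log2 scale on day 3 (SE 0.09, edgeR adjusted p = 8.24e-04) and stood at -0.58 on day 6 (SE 0.09, edgeR adjusted p = 3.00e-04), so the pair differed in time course.

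TRPM5 (chr11:2404515-2423045, minus strand), the calcium-activated cation channel that depolarises taste and tuft cells, measured 12.2, 7.4 and 10.8 CPM on day 0, 13.8, 12.9 and 13 CPM on day 3, and 5.95, 6.16 and 7.32 CPM on day 6. The 3 days did not overlap, although replicate 2 of day 0 lay just above the highest day 6 library. On day 3 the log2 fold change was 0.37 (SE 0.16, edgeR adjusted p = 0.0764), and without replicate 1 of day 0 it was 0.54 (adjusted p = 0.0191). Without replicate 2 of day 0, the lowest of that day, it was 0.18 (adjusted p = 0.166). Day 6 was lower, at -0.65 against day 0 (SE 0.16, edgeR adjusted p = 0.00522) and -1.03 against day 3 (SE 0.16, edgeR adjusted p = 9.34e-04). Of its exonic bases 404, or 10.2%, lie opposite the antisense transcript AC124057.1, and without known strand use reads from the pair cannot be told apart.

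BMX (chrX:15464246-15556529, plus strand), a TEC family tyrosine kinase, was the one gene of the 9 called lower in all 3 comparisons. It measured 150, 177 and 155 CPM on day 0, 130, 127 and 128 CPM on day 3, and 99.7, 100 and 91.6 CPM on day 6. The 3 days did not overlap, each being lower than the one before. Its log2 fold change was -0.32 on day 3 (SE 0.08, edgeR adjusted p = 0.00652) and -0.72 on day 6 (SE 0.08, edgeR adjusted p = 1.30e-05), with -0.40 between day 3 and day 6 (SE 0.08, edgeR adjusted p = 0.004).

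Promoter windows from RefSeq (GRCh38.p14, 250 bases before to 50 after a transcript start) were matched for 6 of the 9 genes, 10 windows in all; POU2F3, TRPM5 and ASCL2 have no entry. Both strands were searched for the octamer ATGCAAAT. It was found in 1 of the 10 windows, the second start of BMX, with its first base at position -44, and in 1.77% of all 35116 windows. Its first 7 letters, ATGCAAA, which the octamer contains, were found in that window and in the AVIL window at position -46, against 4.46% of all windows. The 250 bases upstream of these starts follow, 5′ to 3′ on the gene's strand, with the matched letters in capitals; a match describes the letters and not binding. The first is chr12:57818735-57818984 on the minus strand and the second chrX:15507058-15507307 on the plus strand.
AVIL promoter: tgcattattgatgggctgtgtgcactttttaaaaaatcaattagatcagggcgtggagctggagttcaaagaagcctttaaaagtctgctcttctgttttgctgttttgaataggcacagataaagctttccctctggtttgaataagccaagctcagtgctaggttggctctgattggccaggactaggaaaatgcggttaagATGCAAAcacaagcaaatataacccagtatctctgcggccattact
BMX promoter: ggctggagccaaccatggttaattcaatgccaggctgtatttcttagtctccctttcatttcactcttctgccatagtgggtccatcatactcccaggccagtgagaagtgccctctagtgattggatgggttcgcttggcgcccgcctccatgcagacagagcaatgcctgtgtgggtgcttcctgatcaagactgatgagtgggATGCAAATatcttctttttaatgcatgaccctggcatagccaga

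**Figure D2:**
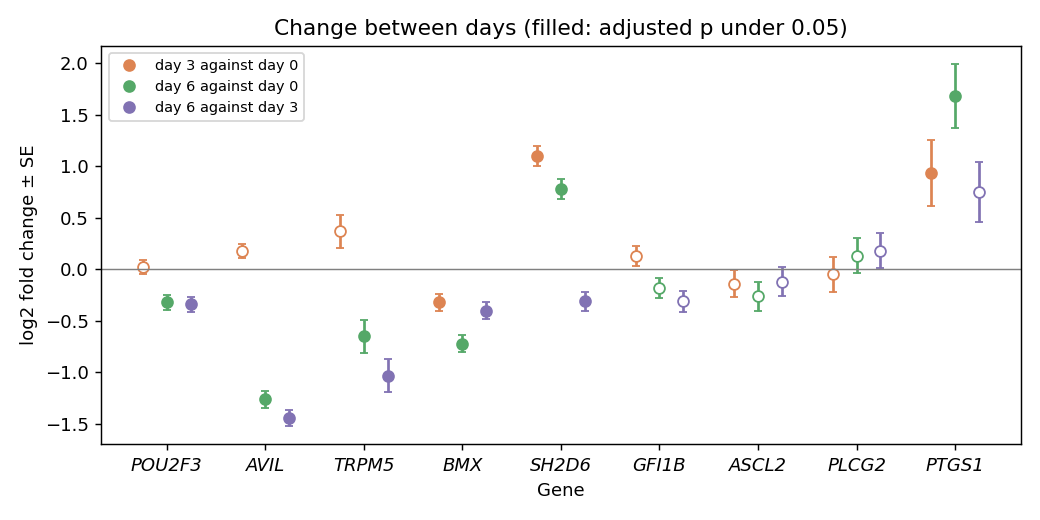
log2 fold change of each of the 9 genes (vertical axis) in the 3 comparisons of days, with bars of 1 SE; filled points had an edgeR adjusted p under 0.05 and open points did not. AVIL reached -1.44 between day 3 and day 6, and PTGS1 reached 1.68 between day 0 and day 6.

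SH2D6 (chr2:85418721-85437029, plus strand), an SH2 domain adaptor of the family that holds BLNK and a known tuft cell transcript, went the other way. It measured 8.85, 9.83 and 10.3 CPM on day 0, 22.4, 19 and 20.5 CPM on day 3, and 16.9, 15.7 and 17.2 CPM on day 6. The days did not overlap, with day 3 highest and day 0 lowest. Its log2 fold change was 1.10 on day 3 (SE 0.10, edgeR adjusted p = 8.11e-06) and 0.78 on day 6 (SE 0.10, edgeR adjusted p = 3.74e-05). Between day 3 and day 6 it was -0.31 (SE 0.09, edgeR adjusted p = 0.0409), a call lost in 11 of 19 alternative analyses (adjusted p 0.0123 to 0.167). Those 11 include leaving out any 1 library of day 3 or day 6, with values of -0.25 to -0.37.

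PTGS1 (chr9:122370530-122395703, plus strand) encodes cyclooxygenase-1, which makes the precursor of prostaglandins, and was the other gene that rose. It measured 3.36, 4.64 and 3.81 CPM on day 0, 5.48, 4.69 and 12.5 CPM on day 3, and 11, 12.4 and 14.4 CPM on day 6. Days 0 and 6 did not overlap, and replicate 3 of day 3 lay within day 6 while its 2 companions lay just above day 0. Day 6 against day 0 gave a log2 fold change of 1.68 (SE 0.31, edgeR adjusted p = 6.84e-04). Day 3 against day 0 gave 0.93 (SE 0.32, edgeR adjusted p = 0.0345), a call lost in 8 of 19 alternatives. Without replicate 3 of day 3 it was 0.36 (adjusted p = 0.148), without replicate 1 or 3 of day 0 it was 0.82 (adjusted p = 0.0955) or 0.91 (adjusted p = 0.0702), and without replicate 2 or 3 of day 6 it was 0.93 (adjusted p = 0.0565) or 0.92 (adjusted p = 0.0528). Day 6 against day 3 gave 0.75 (SE 0.29, edgeR adjusted p = 0.108), and passed without replicate 3 of day 3 (1.31, adjusted p = 7.06e-04) or replicate 2 of day 0 (0.76, adjusted p = 0.0401). Its inducible relative PTGS2 moved differently, falling by 0.85 on the log2 scale on day 3 (SE 0.13, edgeR adjusted p = 3.19e-04) and standing at 0.18 on day 6 (adjusted p = 0.215).

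The remaining 3 genes passed the test in no comparison. GFI1B (chr9:132944000-132991687, plus strand), a zinc finger repressor of blood and tuft cells, measured 52.9, 62.2 and 52.3 CPM on day 0, 61.8, 61.1 and 60.7 CPM on day 3, and 48.4, 43.6 and 56.1 CPM on day 6. Day 0 overlapped both other days, and day 6 lay below day 3. Its log2 fold changes were 0.13, -0.18 and -0.31 (SE 0.10 each), with edgeR adjusted p of 0.304, 0.153 and 0.0529. Day 6 against day 3 passed in 7 of 19 alternatives, as without replicate 2 of day 0 (-0.31, adjusted p = 0.00657) or replicate 3 of day 6 (-0.42, adjusted p = 0.0203). Day 6 against day 0 passed without replicate 3 of day 6 (-0.29, adjusted p = 0.0315), and was -0.10 without replicate 2 of day 0 (adjusted p = 0.324) or replicate 2 of day 6 (adjusted p = 0.445). It shares 349 exonic bases (5.72%) with TSC1 on the opposite strand.

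ASCL2 (chr11:2268495-2270952, minus strand), a basic helix-loop-helix factor of intestinal stem cells and of the tuft cell variant of small cell carcinoma, measured 18, 26.7 and 19.4 CPM on day 0, 18.2, 21 and 19 CPM on day 3, and 18.1, 16.5 and 19 CPM on day 6. The days overlapped, and replicate 2 of day 0 was the highest library. Its log2 fold changes were -0.14, -0.26 and -0.12 (SE 0.13, 0.14 and 0.14), with edgeR adjusted p of 0.452, 0.13 and 0.621; without replicate 1 of day 0, day 6 against day 0 was -0.37 (adjusted p = 0.0353), and without replicate 2 of day 0 it was -0.07 (adjusted p = 0.517).

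PLCG2 (chr16:81739097-81962693, plus strand), the phospholipase C that acts below TEC and BTK kinases, measured 187, 191 and 259 CPM on day 0, 211, 204 and 200 CPM on day 3, and 177, 214 and 303 CPM on day 6. The days overlapped and replicate 3 was the highest library of both day 0 and day 6. Its log2 fold changes were -0.05, 0.13 and 0.18 (SE 0.17 each), with edgeR adjusted p of 0.844, 0.566 and 0.567. Their signs turned without replicate 3 of day 0 (0.12 on day 3 against day 0) and without replicate 3 of day 6 (-0.13 and -0.07 for day 6 against days 0 and 3). It shares 386 exonic bases (2.88%) with the lincRNA AC099524.1 on the same strand.

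By level per length, the order on day 0 was POU2F3 (204 TPM), BMX (110), PLCG2 (59.3), GFI1B (53.7), AVIL (42.6), ASCL2 (19.8), SH2D6 (8.52), TRPM5 (5.03) and PTGS1 (2.92). Of neighbours in that order, only PLCG2 and GFI1B overlapped between libraries. On day 6 the order ran POU2F3 (171 TPM), BMX (70.2), PLCG2 (67.4), GFI1B (50.1), AVIL (18.6), ASCL2 (17.6), SH2D6 (15.4), PTGS1 (9.91) and TRPM5 (3.32). There BMX overlapped PLCG2, PLCG2 overlapped GFI1B and AVIL overlapped ASCL2. PTGS1 thus moved from below TRPM5 to above it, and on day 3, at 5.8 and 6.66 TPM, the pair overlapped.

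The genes that work with POU2F3 shared its late fall in part. Of 5 tested OCT factors and coactivators, 1 was called higher and 0 lower by edgeR on day 3 (0 lower also at an unadjusted p under 0.05, by DESeq2 and by limma-voom). On day 6 against day 0, 1 (20%) was higher and 3 (60%) lower. On day 6 against day 3, 0 were higher and 3 (60%) lower by edgeR. There 1, POU2F2, was higher at an unadjusted p under 0.05 and by limma-voom, and 0 by DESeq2. Over all tested genes, 22.5% were higher and 18.1% lower on day 3. The shares were 28.9% and 25.7% on day 6 against day 0, and 11.5% and 4.76% on day 6 against day 3. POU2AF2 stayed at 66.5 ± 6.11 and 68.5 ± 2.87 CPM on days 0 and 3 and was at 49.7 ± 2.85 CPM on day 6 (n = 3 each), a log2 fold change of -0.42 against day 0 (SE 0.08, edgeR adjusted p = 0.00117) and -0.46 against day 3 (SE 0.08, edgeR adjusted p = 0.00233). POU2AF3 measured 117 ± 18.4, 128 ± 3.04 and 96.5 ± 3.86 CPM. Its log2 fold change of -0.28 on day 6 against day 0 (edgeR adjusted p = 0.0314) lost the call in 6 alternatives, among them without replicate 1, 2 or 3 of day 6 (adjusted p = 0.0526, 0.0974 and 0.0626). Against day 3 it was -0.41 (edgeR adjusted p = 0.0141), and the call was lost without replicate 1 of day 3 (adjusted p = 0.0584) or replicate 2 of day 6 (adjusted p = 0.0643). POU2AF1, the coactivator best known from B cells, rose from 38.9 ± 4.79 to 50.8 ± 1.46 CPM on day 3 (log2 fold change 0.39, edgeR adjusted p = 0.00513) and then fell to 33 ± 1.44 CPM (-0.62 between days 3 and 6, edgeR adjusted p = 4.79e-04). Its difference between day 0 and day 6, -0.24 (edgeR adjusted p = 0.0414), lost the call in 11 of 19 alternatives (adjusted p 0.0199 to 0.221), 7 of which left out replicate 2 of day 0 or any 1 library of day 3 or day 6. POU2F1, the ubiquitous family member, passed in no comparison and stood at 13.4 TPM on day 0, against 204 TPM for POU2F3.

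**Figure D3:**
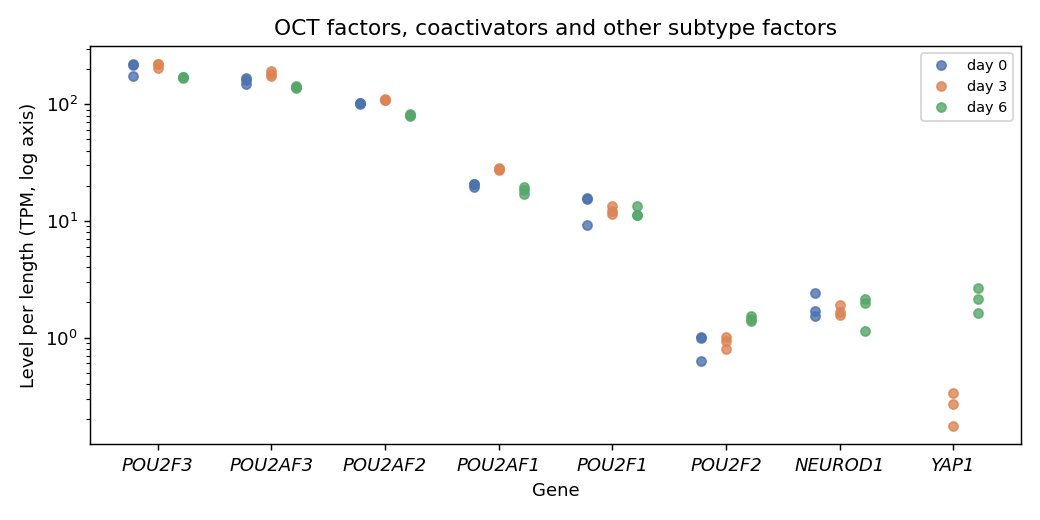
Level per length (TPM, log axis) of OCT factors, their coactivators and other carcinoma subtype factors, 1 point per library, coloured by day. POU2F3, POU2AF3 and POU2AF2 lie above 75 TPM in all 9 libraries, and the 3 day 0 libraries of YAP1, at 0, are not drawn.

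Among other factors linked to tuft cells or carcinoma subtypes, the homeobox genes HMX2 and HMX3 rose. Of 11 tested tuft cell transcription factors, 4 (36.4%) were higher and 2 (18.2%) lower on day 3, where 22.5% and 18.1% of all tested genes were. On day 6, 3 (27.3%) were higher and 2 (18.2%) lower, against 28.9% and 25.7% of all tested genes. Between days 3 and 6, 1 (9.09%) was higher and 1 (9.09%) lower, against 11.5% and 4.76%. HMX2 measured 3.28 ± 0.319, 5.33 ± 0.367 and 7.47 ± 0.694 CPM on the 3 days (n = 3 each), with log2 fold changes of 0.71 on day 3 (edgeR adjusted p = 0.00159) and 1.20 on day 6 (edgeR adjusted p = 1.44e-05). HMX3 reached 2.12 on day 6 (edgeR adjusted p = 6.83e-05) from 0.421 ± 0.124 CPM on day 0. PROX1, a homeobox factor of neuroendocrine carcinoma, stood at 172, 168 and 111 CPM in the mean, with -0.03 on day 3 (edgeR adjusted p = 0.743) and -0.63 on day 6 (edgeR adjusted p = 2.53e-05). FOXI1, the ionocyte factor, stood at 48.2 TPM on day 0 and passed in no comparison.

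The wider tuft cell programme did not move in 1 direction. Of 117 other tuft cell genes that were listed, 94 were tested. Called higher and lower were 28 (29.8%) and 10 (10.6%) on day 3, 33 (35.1%) and 25 (26.6%) on day 6 against day 0, and 20 (21.3%) and 18 (19.1%) on day 6 against day 3. The corresponding shares of all tested genes are those given above, and the list medians were 0.09, 0.13 and -0.02 on the log2 scale.

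Of 12 tested genes of the taste transduction list, 2 (16.7%) were called higher and 6 (50%) lower on day 6 against day 0, where 28.9% and 25.7% of all tested genes were. Their median log2 fold change was -0.38. GNG13, the G protein gamma subunit of taste cells, went from 2.56 ± 0.2 CPM on day 0 to 3.37 ± 0.343 and 1.46 ± 0.268 CPM, a log2 fold change of -0.80 on day 6 (SE 0.19, edgeR adjusted p = 0.00394). TAS1R3, a subunit of the sweet and umami receptors, was at 0.986 ± 0.207, 0.776 ± 0.0644 and 0.188 ± 0.0636 CPM and fell by 2.40 on the log2 scale (SE 0.35, edgeR adjusted p = 1.24e-04). The day 6 level of TAS1R3, 0.135 to 0.259 CPM, is close to that of 3 counts (0.098 to 0.141 CPM). RGS13, a regulator of G protein signalling chosen after its values were seen, fell from 96.8 ± 23.8 to 53.2 ± 8.13 CPM (-0.86, edgeR adjusted p = 5.59e-04). RGS21, its relative in taste cells, was lowest on day 3 instead, at 2.8 ± 0.952 CPM against 7.59 ± 0.755 on day 0 (-1.45, edgeR adjusted p = 2.19e-04). SCNN1A, an epithelial sodium channel subunit, rose late, from 6.14 ± 0.793 to 19.2 ± 2.59 CPM on day 6 (1.65, edgeR adjusted p = 1.18e-06).

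Of 11 tested eicosanoid genes, the pathway PTGS1 belongs to, 3 (27.3%) were called higher and 3 (27.3%) lower on day 6 against day 0, next to 28.9% and 25.7% of all tested genes. ALOX15, a lipoxygenase, rose from 74.4 ± 1.28 to 115 ± 4.39 CPM on day 3 (log2 fold change 0.64, edgeR adjusted p = 3.37e-05) and stood at 94.9 ± 4.39 CPM on day 6. PLA2G4A, the phospholipase that frees arachidonic acid for cyclooxygenases, fell from 240 ± 23.1 to 156 ± 13.5 CPM on day 6 (-0.62, edgeR adjusted p = 1.19e-04). On day 6 ALOX15 was thus higher than on day 0 (0.35, edgeR adjusted p = 9.75e-04), like PTGS1, and PLA2G4A lower. HPGDS, the prostaglandin D synthase of tuft cells, had 1 count in all 9 libraries together.

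SH2 domain and tyrosine kinase genes, the group that BMX, SH2D6 and PLCG2 belong to, gave 8 (42.1%) called higher and 3 (15.8%) lower of 19 tested on day 6 against day 0, with 28.9% and 25.7% over all tested genes. TEC, the kinase after which the BMX family is named, went from 0.152 to 0.733 and 2.87 CPM in the mean (edgeR adjusted p = 3.87e-07 on day 6), opposite to BMX, though its day 0 level is close to that of 3 counts. MATK, a kinase that restrains SRC kinases, rose from 0.469 to 5.4 CPM (3.49, edgeR adjusted p = 6.03e-08).

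Surface and effector genes gave 9 (42.9%) higher and 6 (28.6%) lower of 21 tested on day 6 against day 0, with 28.9% and 25.7% over all tested genes. IL4R, the receptor subunit through which IL-4 and IL-13 expand tuft cells, rose from 0.719 ± 0.0415 to 4.35 ± 0.23 and 13.3 ± 1.02 CPM (log2 fold change 2.59 and 4.20, edgeR adjusted p = 6.18e-07 and 1.53e-09). DCLK1, a kinase widely used as a mouse tuft cell marker and chosen after its values were seen, rose from 1.06 ± 0.289 to 3.55 ± 0.455 CPM on day 6 (1.71, edgeR adjusted p = 5.93e-05). CD24, a surface glycoprotein, fell from 324 ± 45.8 to 155 ± 4.38 CPM (-1.06, edgeR adjusted p = 2.43e-06). HTR3E, a serotonin receptor subunit, and IRAG2 and HEPACAM2, tuft cell transcripts, were chosen after their values were seen and were lower on day 6 by log2 fold changes of -0.76, -0.55 and -0.65 (edgeR adjusted p = 4.54e-04, 2.59e-04 and 1.25e-04).

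Villus and cytoskeleton genes gave 7 (46.7%) higher and 2 (13.3%) lower of 15 tested on day 6 against day 0, with 28.9% and 25.7% over all tested genes. FSCN1, an actin-bundling protein like AVIL, rose from 22.4 ± 1.56 to 93.3 ± 3.98 and 141 ± 20.2 CPM (2.65 on day 6, edgeR adjusted p = 5.08e-09). SCIN, an actin-severing relative of AVIL, was lowest on day 6 instead: it was at 44 ± 1.76, 44 ± 1.81 and 28.6 ± 1.59 CPM and fell by 0.62 (edgeR adjusted p = 2.69e-05).

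**Figure D4:**
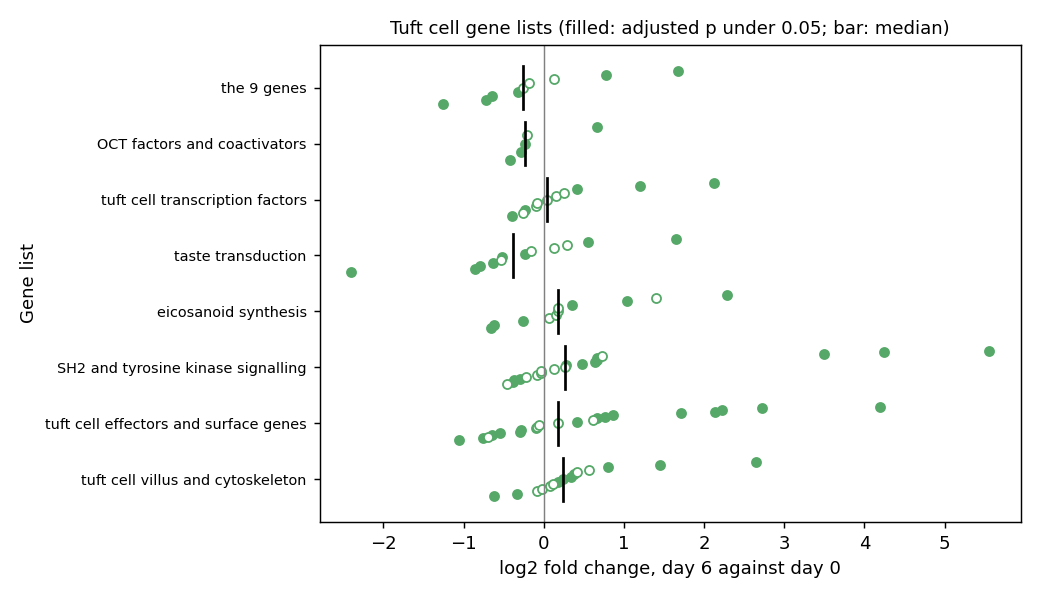
log2 fold change on day 6 against day 0 (horizontal axis) of each tested gene in the tuft cell lists (vertical axis); filled points had an edgeR adjusted p under 0.05, and vertical bars are list medians. The bar lies at -0.38 for taste transduction and -0.26 for the 9 genes, and at 0.24 for villus and cytoskeleton genes.

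Genes whose profile over the 9 libraries was most like that of POU2F3 were sought by Pearson correlation of log2 CPM, as a description, among the 11040 tested genes averaging 5 CPM or more. SOX13 (r = 0.998), CREB3L2 (0.992), E2F1 (0.987), MYRIP (0.984) and COL6A6 (0.981) came first. Each was flat to day 3 and lower on day 6: SOX13 was at 61.8, 63 and 43.8 CPM in the mean (-0.50 on day 6 against day 0, edgeR adjusted p = 1.11e-04). COL6A6 fell by 2.13 on the log2 scale from 28.9 to 6.58 CPM (edgeR adjusted p = 1.22e-06). Of the other 8 genes, AVIL was nearest (0.980), then TRPM5 (0.883), BMX (0.805), GFI1B (0.711) and ASCL2 (0.395), with SH2D6 (-0.181), PLCG2 (-0.223) and PTGS1 (-0.781) below 0. The 9 points share 3 days and their scaling, and the correlations carry no test. The first 5 genes were picked for likeness over these same libraries, so their profiles and p values are not separate evidence.

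Genes that lie beside the 9 in the genome were compared with them. Of 34 annotated genes in the table that start within 100 kb of one of the 9 starts, 27 were tested. Called higher and lower were 6 and 1 on day 3, where 22.5% and 18.1% of all tested genes were called. On day 6 against day 0 they were 12 and 3 (28.9% and 25.7% of all tested genes). On day 6 against day 3 they were 3 and 0 by edgeR (11.5% and 4.76% of all tested genes). There 1, METTL1, was lower at an unadjusted p under 0.05, and 0 by DESeq2 and limma-voom. POU2F3's neighbour TRIM29, a gene of basal and squamous epithelia whose start lies 51111 bases upstream, rose while POU2F3 did not: 49.4 ± 1.51, 87.5 ± 2.7 and 117 ± 10.7 CPM, a log2 fold change of 0.82 on day 3 (edgeR adjusted p = 1.53e-05) and 1.24 on day 6 (edgeR adjusted p = 1.63e-07). KCNQ1, a potassium channel gene that starts 21639 bases upstream of TRPM5, rose by 1.15 on day 6 (edgeR adjusted p = 8.37e-05) against the fall of TRPM5. CTDSP2, which starts 28035 bases upstream of AVIL, rose by 0.64 (edgeR adjusted p = 5.41e-05), also opposite to its neighbour, as did AGAP2 (0.96, edgeR adjusted p = 1.70e-05) and TSPAN31 (0.58, edgeR adjusted p = 6.21e-04). All 3 neighbours called lower on day 6 also lie beside AVIL and went its way: TSFM, METTL1 (-0.44, edgeR adjusted p = 0.00111) and CYP27B1 (-0.51, edgeR adjusted p = 0.0124).

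SH2D6 had a neighbour that moved with it. CAPG, an actin-capping protein of the gelsolin family, starts 289 bases upstream of SH2D6 and runs the other way. It measured 7.64, 9.74 and 8.75 CPM on day 0, 20.8, 21.2 and 21.5 CPM on day 3, and 24.2, 21.4 and 25.3 CPM on day 6. Both later days lay above day 0, with log2 fold changes of 1.29 on day 3 (SE 0.10, edgeR adjusted p = 4.35e-06) and 1.45 on day 6 (SE 0.10, edgeR adjusted p = 4.35e-07). The RefSeq windows at the 2 SH2D6 starts held 24 and 17 CpG dinucleotides, against 3 to 10 in the other 8 member windows and a median of 14 over all windows. Part of the stretch between the 2 genes' starts is shown because both genes rose, in lower case since no motif was matched; it lies at chr2:85418464-85418713 and is written on the strand of SH2D6.
SH2D6 promoter: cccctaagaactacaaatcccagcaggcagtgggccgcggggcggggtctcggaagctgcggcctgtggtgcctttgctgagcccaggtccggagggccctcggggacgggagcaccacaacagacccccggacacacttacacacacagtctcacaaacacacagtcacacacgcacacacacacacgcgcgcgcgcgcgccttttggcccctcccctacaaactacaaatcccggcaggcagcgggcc

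**Figure D5:**
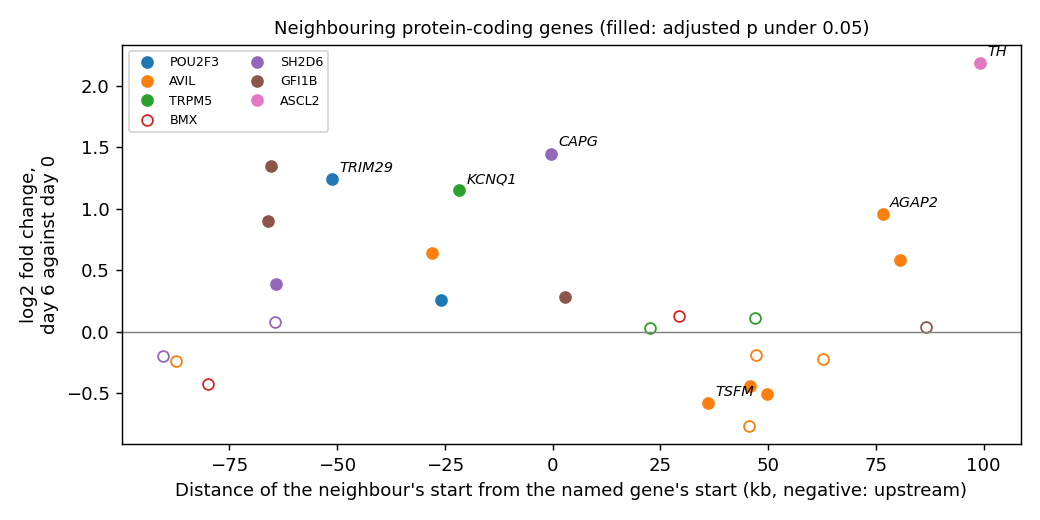
log2 fold change on day 6 against day 0 (vertical axis) of tested protein-coding genes within 100 kb, by the distance of their start from the start of the named gene (horizontal axis, kb, negative upstream, coloured by the named gene); filled points had an edgeR adjusted p under 0.05. CAPG lies next to the start of SH2D6 at 1.45, and TRIM29 lies upstream of POU2F3 at 1.24.

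Markers of other cell types were read in the same libraries, where 28.9% of all tested genes were higher and 25.7% lower on day 6 against day 0. Of 12 tested basal and squamous markers, 11 (91.7%) were called higher on day 6 against day 0 and 0 lower by edgeR (0 also at an unadjusted p under 0.05, by DESeq2 and by limma-voom), with a median log2 fold change of 1.52, and their summed level went from 313 to 316 CPM on day 0 to 554 to 574 CPM on day 6. Of 13 tested neuroendocrine markers, 7 (53.8%) were higher and 1 (PROX1, 7.69%) lower, and of 6 ionocyte markers 4 (66.7%) were higher. Fibroblast markers gave 3 of 4 (75%) higher, with a summed level of 55.4 to 60.1 CPM on day 0 and 73.7 to 80.8 CPM on day 6. The part of such shifts in the lower POU2F3, AVIL, TRPM5 and BMX was not tested.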

How the data were processed

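Poly-A RNA was sequenced in 9 libraries of TYUC-1, 3 biological replicates on each of days 0, 3 and 6, with TruSeq chemistry per the labels' protocols. Per the submitters' processing notes, kallisto 0.44.0, DESeq2 (no version) and bcl2fastq 2.19 were used, and the builds given are GRCh38, GRCm38 and hg38. The deposited table holds the authors' estimated counts for 35762 gene symbols, whole numbers of 21638874 to 31235055 per library; how transcripts were summed, and whether strand was used, is not given in the sources used here. Every column was matched to a sample by its label.

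Symbols were placed with GENCODE 29 (33545 matched). In R 4.3.3, edgeR 4.0.16 took the counts as deposited, kept 15345 genes with filterByExpr (minimum count 10), scaled by TMM and fitted 1 mean per day without covariates. SE is the log2 fold change divided by the root of F. Where a gene has 0 counts, 3 counts (0.098 to 0.141 CPM) are the limit, which covers counting error only. The fit was tested on simulated counts.

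The members and the gene lists were chosen with earlier results of these data known. Named from each list are up to 4 genes with the lowest p past the threshold, or the 2 highest where none passed, the 5 most like POU2F3 and neighbours within 100 kb; others are said to have been chosen after their values were seen. Alternatives changed the scaling, the filter, the tool (DESeq2 1.42.0, limma 3.58.1), the samples fitted, the replicate block, the threshold or 1 library. Some genes of the lists are not reported here.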

Additional observations from a re-analysis of the deposited data

Results flagged for a closer look

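For 32 genes the change against day 0 differed between the 2 treated days by the edgeR test of day 6 against day 3 itself: 5 of the 9 genes and 27 of the other tuft cell genes picked for description by the rule for named genes or after their values were seen. Of these, 18 were lower and 14 higher on day 6, where over all 94 other tuft cell genes tested 20 were higher and 18 lower. Values are log2 differences, day 6 minus day 3.

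Among the 9 genes the difference was -0.34 for POU2F3, -1.44 for AVIL, -1.03 for TRPM5 and -0.40 for BMX. It was -0.31 for SH2D6, where the call did not hold in 11 of 19 alternatives. The coactivators gave -0.62 for POU2AF1, -0.46 for C11orf53 and -0.41 for COLCA2, and the homeobox gene HMX2 0.49.

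Taste transduction genes went both ways, with -2.04 for TAS1R3, -1.19 for GNG13, -0.50 for RGS13 and -0.34 for PLCB2 against 1.37 for SCNN1A and 0.82 for RGS21. Eicosanoid genes did too, at -0.28 for ALOX15, -0.45 for PLA2G4A and 1.04 for PTGS2. The 4 flagged SH2 domain and kinase signalling genes were higher on day 6, at 1.82 for MATK, 1.97 for TEC, 2.13 for SH2D4A and 0.47 for VAV1. Of all 19 tested genes of that list, 5 were called higher and 2 lower (PIK3R5 at -0.64 and GRB2 at -0.28). Over all tested genes the shares were 11.5% and 4.76%.

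Of surface, effector and cytoskeleton genes, IL4R (1.61), TUBA1A (0.93), ITPRID1 (1.06), FSCN1 (0.59), COBL (0.32) and DCLK1 (0.88) were higher. CD24 (-0.45), SCIN (-0.62), HEPACAM2 (-0.40) and HTR3E (-1.12) were lower. The COBL call was lost without any 1 library of day 3 or day 6 (edgeR adjusted p = 0.0728 to 0.177) and under DESeq2 (adjusted p = 0.0507). That of RGS13 was also lost without any 1 library of day 3 or day 6 (edgeR adjusted p = 0.0743 to 0.177). Calls for COLCA2, HMX2, RGS21, ALOX15, PLCB2, HEPACAM2 and DCLK1 were lost without some single libraries of those days. Groups of 3 libraries were not tested for single outlying values.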

How the results depend on the processing

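Of 14 called changes among the 9 genes, 12 kept direction and call in all 19 alternatives; the exceptions are PTGS1 on day 3 against day 0 and SH2D6 on day 6 against day 3. Of 200 called changes of other named genes, 163 did. Scaling by library totals alone moved the median of all genes to 0.094, 0.128 and 0.034, and the share of calls that were higher from 55.3%, 53% and 70.7% to 69.2%, 66.6% and 78.1%; called lower among other tuft cell genes were then 6 on day 3 and 15 on day 6, and PLCG2 on day 3 turned to 0.03. On day 3, 1 of the 9 genes was called higher under limma-voom, with only the 2 days fitted, or at an adjusted p under 0.01 (1 to 2 with 1 library left out). Between days 3 and 6, 1 was higher under limma-voom, without a filter on low counts or with only the 2 days fitted (0 to 1 with 1 library left out). At an adjusted p under 0.01, genes changed were 3860 on day 3 and 1444 between days 3 and 6; other tuft cell genes lower were 6 on day 3, and 12 higher and 9 lower between days 3 and 6. With only the 2 days fitted, 4331 genes changed between days 3 and 6. Leaving out 1 library gave 1606 (without replicate 2 of day 3) to 4681 (without replicate 2 of day 0) changed genes between days 3 and 6. The same gave 6 to 13 other tuft cell genes lower on day 3, and 13 to 27 higher and 12 to 30 lower between days 3 and 6. It also turned log2 fold changes that were not called: -0.01 to 0.03 for POU2F3, -0.25 to 0.05 for ASCL2 and -0.14 to 0.12 for PLCG2 on day 3, and -0.13 to 0.29 (day 6 against day 0) and -0.07 to 0.33 (day 6 against day 3) for PLCG2. The cause of these shifts was not tested.

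Same-numbered replicates deviated together with correlations of -0.08 to 0.13. Each day 0 replicate correlated best with its own number on day 6 (0.03, 0.04 and 0.13). Between days 0 and 3 only replicate 1 did, and between days 3 and 6 none did. Such low values from 3 libraries a day cannot settle whether the numbers pair the libraries, and the labels do not say. With a replicate block, 6113, 8305 and 2293 genes changed, POU2F3 stood at -0.32 on day 6 against day 0 (adjusted p = 0.0033), and 1 of the 9 genes was higher (PTGS1) and 4 lower between days 3 and 6.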
